A study of Mus musculus with 33 samples.

Results

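The comparison described here asks whether lowering ChREBP changed the same transcripts by the same amount in mouse livers with and without glucose-6-phosphatase. It used all 33 of the 33 liver RNA libraries, chosen by their labels as the 4 arms of a design that crosses genotype with shRNA. Every library came from a male C57BL/6J mouse that carried floxed G6pc alleles, was 13 to 18 weeks old at infection, and had received both an adeno-associated virus (AAV2/8) and tamoxifen. The group shSCR/L-G6pc+/+ (n = 8) had no Cre and a scrambled shRNA, and the group shChREBP/L-G6pc+/+ (n = 8) had no Cre and an shRNA against ChREBP. The groups shSCR/L-G6pc-/- (n = 8) and shChREBP/L-G6pc-/- (n = 9) also carried SA-creERT2, a Cre recombinase that albumin-expressing cells make and tamoxifen switches on, so the deletion is limited to hepatocytes and the other cells of these livers keep G6pc. Liver was taken 10 days after the last of 5 days of tamoxifen, and n counts libraries, because nothing in the labels ties each library to a mouse of its own. The p-values below therefore measure the spread between libraries.

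G6pc encodes the catalytic subunit of glucose-6-phosphatase, the enzyme that releases free glucose from the liver, and its loss is the defect of glycogen storage disease type 1a. Without it, glucose-6-phosphate and other phosphorylated sugars build up in hepatocytes. ChREBP, the product of Mlxipl, is a transcription factor activated by such sugar phosphates that drives genes of glycolysis and fatty acid synthesis, among them the liver pyruvate kinase gene Pklr. The difference between the effects of the knockdown in the 2 genotypes measures whether its outcome depended on that state.

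The 2 hairpins differ in their 21-base stems, which are shown because the whole comparison rests on them. The first arm of each pair is the reverse complement of the second, and no base is set in capitals.
shChREBP, arm 1: atgtagtttgaagatgtgggt
shChREBP, arm 2: acccacatcttcaaactacat
shSCR, arm 1: gttgtaagtggaggtttaagt
shSCR, arm 2: acttaaacctccacttacaac
Arm 2 of shChREBP matched 5 transcripts of 1 gene, Mlxipl, among 141767 mouse transcripts searched for exact matches. The matched site is chr5:135128544-135128564 on the + strand (GRCm38), in the coding part of exon 8. Neither arm of shSCR matched any of these transcripts exactly.

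Messenger RNA was counted from its 3' end. The libraries held 1497843 to 3546852 counts, and 10179 of 25988 genes passed the filter on low counts. Levels are given in CPM, counts scaled to a common library total after TMM normalization, and differences between groups are on the log2 scale from the edgeR fit. For each gene the effect of shChREBP is its log2 change from shSCR within a genotype, and the difference between genotypes is the effect in L-G6pc-/- livers minus the effect in L-G6pc+/+ livers. A positive difference means a larger rise, or a smaller fall, in L-G6pc-/- livers. A gene is called where the Benjamini-Hochberg adjusted p of edgeR's quasi-likelihood test, taken over all 10179 genes, was under 0.05.

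Some libraries of the shChREBP/L-G6pc-/- group stood apart from the rest of it. The first 2 principal components held 14.7% and 13.3% of the variance. On the first, libraries 29, 30, 32 and 33 of the shChREBP/L-G6pc-/- group lay at -35.6 to -26.8 while the other 5 lay at -7.70 to 1.47, and these 4 had 216 to 359 CPM of Mlxipl against 441 to 500.4 CPM in the other 5. Libraries 9 and 13 were the lowest of the shChREBP/L-G6pc+/+ group, between -21.2 and -19.8, against -15.7 to 8.56 for the other 6. Library 11 was next at -15.7, so no clear gap set libraries 9 and 13 off. Many results are given with and without libraries 29, 30, 32 and 33, and some with and without libraries 9 and 13.

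ChREBP itself, the target of the shRNA, was lowered to a similar average degree in both genotypes. Mlxipl read 449, 528 and 612 CPM (lowest, median and highest library) in shSCR/L-G6pc+/+ and 292, 394 and 413 CPM in shChREBP/L-G6pc+/+. It read 514, 578 and 633 CPM in shSCR/L-G6pc-/- and 216, 441 and 500.4 CPM in shChREBP/L-G6pc-/-. The shSCR and shChREBP libraries did not overlap in either genotype, which holds for 0.865% of all genes tested in L-G6pc+/+ livers and 0.707% in L-G6pc-/- livers. The fall was -0.55 in L-G6pc+/+ livers (adjusted p 0.0129) and -0.57 in L-G6pc-/- livers (adjusted p 0.0042), and the difference between genotypes was -0.03 (SE 0.18, 95% interval -0.40 to 0.35, adjusted p 0.974). That difference was 0.28 (adjusted p 0.353) without libraries 29, 30, 32 and 33. These 4 held 216 to 359 CPM and the other 5 of the group 441 to 500.4 CPM. The average in L-G6pc-/- livers thus mixes unequal levels, and fits without the 4 compare genotypes with an estimated weaker lowering in L-G6pc-/- livers.

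Pklr, G6pc and Cdkn1a likewise showed no called difference between genotypes, with intervals of unequal width. Pklr, the liver pyruvate kinase and a direct ChREBP target, fell by 0.83 on the log2 scale in L-G6pc+/+ livers (adjusted p 0.0035) and by 0.58 in L-G6pc-/- livers (adjusted p 0.0169). The difference for Pklr was 0.26 (SE 0.23, 95% interval -0.21 to 0.72, adjusted p 0.708). For G6pc, whose 3' reads need not lie in the deleted part and so do not check the deletion, the difference was 0.05 (SE 0.40, 95% interval -0.76 to 0.86, adjusted p 0.975). For Cdkn1a, a cell-cycle inhibitor and p53 target, it was 0.68 (SE 0.45, 95% interval -0.23 to 1.59, adjusted p 0.57). These intervals leave room for differences of about 3-fold for Cdkn1a but of less than 2-fold for Pklr.

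Over all genes, the effect of shChREBP differed between the genotypes for 8 of the 10179 genes tested (0.0786%), 6 with a positive difference (0.0589%) and 2 with a negative one (0.0196%). With DESeq2 size factors the split was 6 and 1, and with library size alone it was 30 and 3 of 33 called genes. That last scaling moved the median difference over all genes by 0.102. An unadjusted p under 0.05 was reached by 1226 genes (12%). The median difference over all genes was -0.01 and the median SE was 0.238, so that for 7726 genes (75.9%) the 95% interval lay within a 2-fold difference in either direction. A difference of more than 2-fold was estimated for 164 genes, 78 positive and 86 negative, and these genes had low counts, with a median level of 7.34 CPM against 22.5 CPM over all genes.

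Called within each genotype, the 2 lists of genes overlapped in part, and few genes outside the overlap were shown to differ. The knockdown changed 549 genes in L-G6pc+/+ livers (5.39%, 220 higher and 329 lower) and 770 in L-G6pc-/- livers (7.56%, 339 higher and 431 lower). With library size alone, 848 of 1119 genes called in L-G6pc-/- livers were higher. The count in L-G6pc-/- livers was 106 without libraries 29, 30, 32 and 33. The 137 genes called in both are 25% of the first list and 17.8% of the second, and all 137 moved in the same direction.

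Among the 633 genes called in L-G6pc-/- livers alone, 5 were called for the difference itself, which are Srxn1, Ifit3b, Cyp2a5, Esf1 and Cyp2d40, and the 95% interval of the difference held 0 for 372 (58.8%). Among the 412 called in L-G6pc+/+ livers alone, 3 were called for the difference, Hsd17b13, D10Wsu102e and Tgfbr2, and the interval held 0 for 208 (50.5%). For genes called in neither genotype the interval held 0 for 91.8%. An unadjusted p under 0.05 was reached by 41.5% of the 633 and 49.5% of the 412, against 12% of all genes. Both lists were picked by tests on the same values, so these shares are not independent evidence about the difference. Of the 137 genes called in both genotypes, 0 were called for the difference by edgeR, 10 reached an unadjusted p under 0.05, and for 119 (86.9%) the interval lay within 2-fold. No gene was called in opposite directions in the 2 genotypes. The 2 sets of libraries share no sample, and across the 10179 genes, which are not independent replicates, the effects had a Pearson r of 0.432 and a Spearman rho of 0.372. The effect had the same sign in both genotypes for 63.2% of all genes, for 83.8% of the genes called in L-G6pc+/+ livers and for 84.9% of those called in L-G6pc-/- livers.

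**Figure D1:**
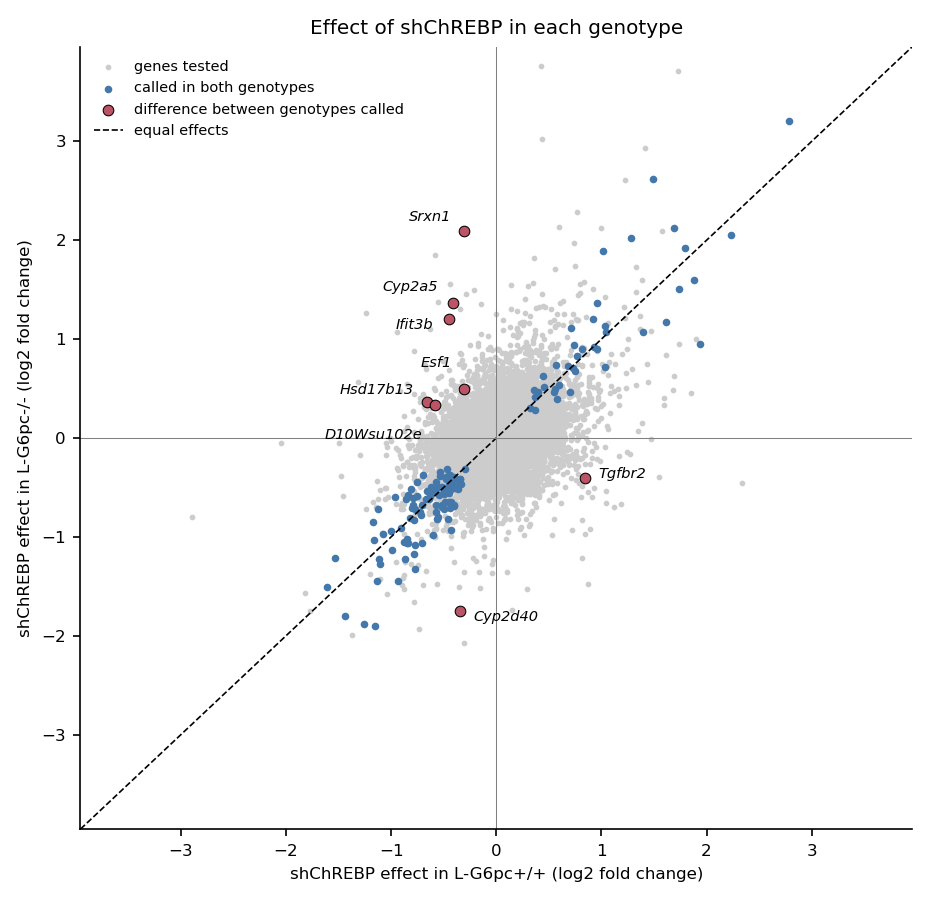
Effect of shChREBP on each of the 10179 genes tested in L-G6pc+/+ livers (horizontal axis, log2) against L-G6pc-/- livers (vertical axis, log2); the 8 genes called for the difference are marked and named. Most genes lie in a cloud around 0 along the diagonal, and the 6 genes with a positive difference lie above it and the 2 with a negative difference below it.

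The 8 called genes fell into 4 patterns, and the plot of their levels by library shows each. Hsd17b13 and D10Wsu102e fell with shChREBP in L-G6pc+/+ livers and were estimated higher, short of the threshold, in L-G6pc-/- livers. Srxn1, Ifit3b, Cyp2a5 and Esf1 rose in L-G6pc-/- livers and were estimated lower, again short of it, in L-G6pc+/+ livers. Tgfbr2 rose in L-G6pc+/+ livers, and Cyp2d40 fell in L-G6pc-/- livers.

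**Figure D2:**
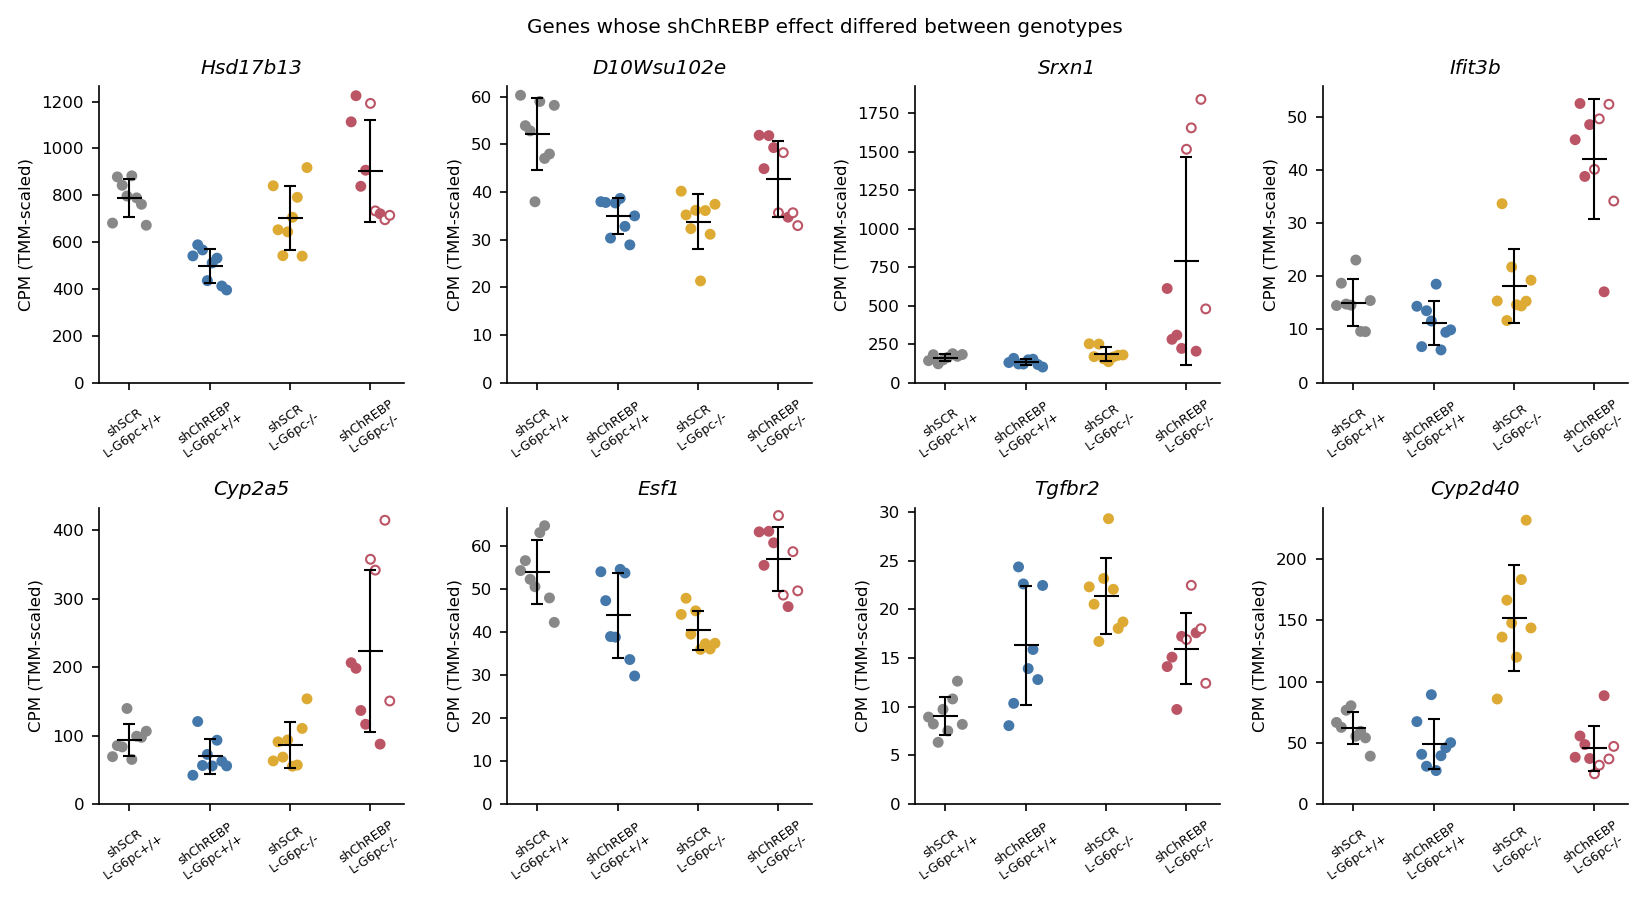
Level of the 8 called genes in CPM (vertical axis, one panel for each gene) in the 33 libraries of the 4 groups (horizontal axis); points are libraries, bars are the mean ± SD, and open circles mark libraries 29, 30, 32 and 33. In Srxn1 the open circles reach 479 to 1842 CPM while the other 5 libraries of that group lie at 204 to 611 CPM, and in Hsd17b13 the shSCR and shChREBP libraries of L-G6pc+/+ livers do not overlap.

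Hsd17b13, a hepatocyte protein of the surface of lipid droplets that belongs to the 17-beta-hydroxysteroid dehydrogenase family, had the smallest p of the interaction (chr5:103955440-103977410, - strand, GRCm38). Its lowest, median and highest libraries were at 672, 793 and 883 CPM in shSCR/L-G6pc+/+ and at 395, 521 and 588 CPM in shChREBP/L-G6pc+/+. In L-G6pc-/- livers the values were 540, 679 and 919 CPM with shSCR and 696, 838 and 1226 CPM with shChREBP. The groups did not overlap in L-G6pc+/+ livers, and they overlapped in L-G6pc-/- livers. The effect was -0.66 (adjusted p 0.00247) in the first genotype and 0.36 (adjusted p 0.0682) in the second, a difference of 1.02 (SE 0.18, 95% interval 0.66 to 1.39, adjusted p 0.0149). In amounts the difference was 491 ± 95.3 CPM (SE). Seen the other way, the genotypes differed by -0.16 under shSCR (adjusted p 0.624) and by 0.86 under shChREBP (adjusted p 1.57e-05).

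D10Wsu102e (chr10:83360221-83488505, + strand) had the same pattern at a lower level. It read 37.9, 53.3 and 60.3 CPM in shSCR/L-G6pc+/+ against 28.9, 36.3 and 38.6 CPM in shChREBP/L-G6pc+/+. In L-G6pc-/- livers it read 21.3, 35.6 and 40.1 CPM with shSCR and 32.9, 44.9 and 51.9 CPM with shChREBP. Groups overlapped in both genotypes, and the highest levels were in shSCR/L-G6pc+/+. The effects were -0.58 (adjusted p 0.0035) and 0.34 (adjusted p 0.0698), and they differed by 0.92 (SE 0.17, 95% interval 0.58 to 1.26, adjusted p 0.0149). The genotypes differed by -0.63 under shSCR (adjusted p 0.000918) and by 0.29 under shChREBP (adjusted p 0.0964).

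Srxn1 encodes sulfiredoxin, an enzyme that repairs oxidised peroxiredoxins and is induced by the stress-responsive factor NRF2 (chr2:152105516-152111376, + strand). It had the largest positive difference among the called genes. Libraries of L-G6pc+/+ livers were at 121, 167 and 187 CPM with shSCR and at 101, 125 and 157 CPM with shChREBP. Those of L-G6pc-/- livers were at 135, 173 and 252 CPM with shSCR and at 204, 479 and 1842 CPM with shChREBP. The last group was wide and overlapped its control. The effects were -0.31 (adjusted p 0.62) and 2.10 (adjusted p 6.95e-05), and the difference was 2.41 (SE 0.45, 95% interval 1.49 to 3.32, adjusted p 0.0181), a 5.30-fold difference of folds. In amounts it was 637 ± 227 CPM (SE). Without libraries 29, 30, 32 and 33 the difference was 1.13 (adjusted p 0.0272), so its call did not rest on those 4 libraries while its size did.

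Ifit3b, an interferon-induced gene and near copy of Ifit3 (chr19:34607970-34613401, + strand), read 9.59, 14.7 and 23.1 CPM in shSCR/L-G6pc+/+ and 6.14, 10.8 and 18.5 CPM in shChREBP/L-G6pc+/+. The L-G6pc-/- livers had 11.7, 15.3 and 33.7 CPM with shSCR and 17.1, 45.8 and 52.6 CPM with shChREBP. In the last group 1 library of 9, library 31, was at 17.1 CPM and the other 8 were above every shSCR/L-G6pc-/- library. The effects were -0.45 (adjusted p 0.278) and 1.21 (adjusted p 0.000203), and the difference was 1.65 (SE 0.32, 95% interval 1.01 to 2.30, adjusted p 0.0181). For Ifit3 the difference was 0.85 (SE 0.33, adjusted p 0.286), with effects of 0.31 and 1.16. Reads of this pair can be shared, so how the count is divided between them is uncertain. Without library 5 the adjusted p of Ifit3b was 0.0570.

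Cyp2a5, the liver cytochrome P450 that hydroxylates coumarin (chr7:26835305-26843548, + strand), read 65.1, 91.4 and 140 CPM in shSCR/L-G6pc+/+ and 42.0, 59.4 and 120 CPM in shChREBP/L-G6pc+/+. In L-G6pc-/- livers it read 55.3, 79.7 and 154 CPM with shSCR and 87.5, 198 and 415 CPM with shChREBP. The groups overlapped in both genotypes. The effects were -0.41 (adjusted p 0.377) and 1.37 (adjusted p 0.000564), and they differed by 1.78 (SE 0.36, 95% interval 1.04 to 2.51, adjusted p 0.0365). Its near copy Cyp2a4 can share reads with it. Without libraries 29, 30, 32 and 33 the difference was 1.20 (adjusted p 0.0922), and without libraries 9 and 13 it was 1.64 (adjusted p 0.0558).

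Esf1, a nucleolar factor of ribosomal RNA processing (chr2:140119883-140170564, - strand), showed the smallest difference among the called genes. It read 42.3, 53.3 and 64.7 CPM in shSCR/L-G6pc+/+ and 29.8, 43.1 and 54.6 CPM in shChREBP/L-G6pc+/+. In L-G6pc-/- livers it read 36.0, 38.5 and 47.9 CPM with shSCR and 45.9, 58.7 and 67.1 CPM with shChREBP. All pairs of groups overlapped. The effects were -0.31 (adjusted p 0.114) and 0.49 (adjusted p 0.00551), and the difference was 0.80 (SE 0.16, 95% interval 0.47 to 1.13, adjusted p 0.0365). The genotype effect changed sign between shRNAs, from -0.42 (adjusted p 0.0369) with shSCR to 0.38 (adjusted p 0.0263) with shChREBP.

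Tgfbr2, the type II receptor of TGF-beta (chr9:116084293-116175360, - strand), had a negative difference. It read 6.34, 8.57 and 12.6 CPM in shSCR/L-G6pc+/+ and 8.05, 14.9 and 24.4 CPM in shChREBP/L-G6pc+/+. The L-G6pc-/- livers had 16.7, 21.3 and 29.3 CPM with shSCR and 9.71, 16.9 and 22.5 CPM with shChREBP. Every shSCR/L-G6pc-/- library was above every shSCR/L-G6pc+/+ library, but the share of all genes for which this holds was not computed. The effects were 0.85 (adjusted p 0.00841) and -0.40 (adjusted p 0.15), and they differed by -1.25 (SE 0.26, 95% interval -1.78 to -0.72, adjusted p 0.0365). The genotypes differed by 1.24 under shSCR (adjusted p 4.21e-05) and by -0.01 under shChREBP (adjusted p 0.976). In bulk liver, fewer cells of a type and less RNA per cell cannot be told apart.

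Cyp2d40, of the cytochrome P450 2D family (chr15:82759833-82764183, - strand), had the most negative difference among the called genes. It read 39.1, 61.0 and 80.2 CPM in shSCR/L-G6pc+/+ and 27.3, 43.2 and 89.2 CPM in shChREBP/L-G6pc+/+. The level in L-G6pc-/- livers was 85.7, 146 and 232 CPM with shSCR and 24.7, 38.1 and 88.4 CPM with shChREBP. Library 31 alone of the 9 exceeded the lowest shSCR/L-G6pc-/- library. The effects were -0.34 (adjusted p 0.374) and -1.75, and they differed by -1.41 (SE 0.30, 95% interval -2.02 to -0.80, adjusted p 0.0486). The genotypes differed by 1.30 under shSCR (adjusted p 0.000102) and by -0.11 under shChREBP (adjusted p 0.806). Other genes of the 2D family can share its reads, and without libraries 29, 30, 32 and 33 the difference was -1.16 (adjusted p 0.0964).

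Leaving out each library in turn kept Hsd17b13, D10Wsu102e and Srxn1 called in all 33 fits. Cyp2a5 lost its call in 15 of them, Esf1 in 17, Tgfbr2 in 16 and Cyp2d40 in 24, with adjusted p of at most 0.0976, and Ifit3b lost it in 1. Without libraries 29, 30, 32 and 33 the fit called 37 of 10399 genes (0.356%), 27 positive and 10 negative, and 6 of the 8 genes were among them. Without libraries 9 and 13 it called 19 genes, 13 positive and 6 negative, with 7 of the 8 among them.

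**Figure D3:**
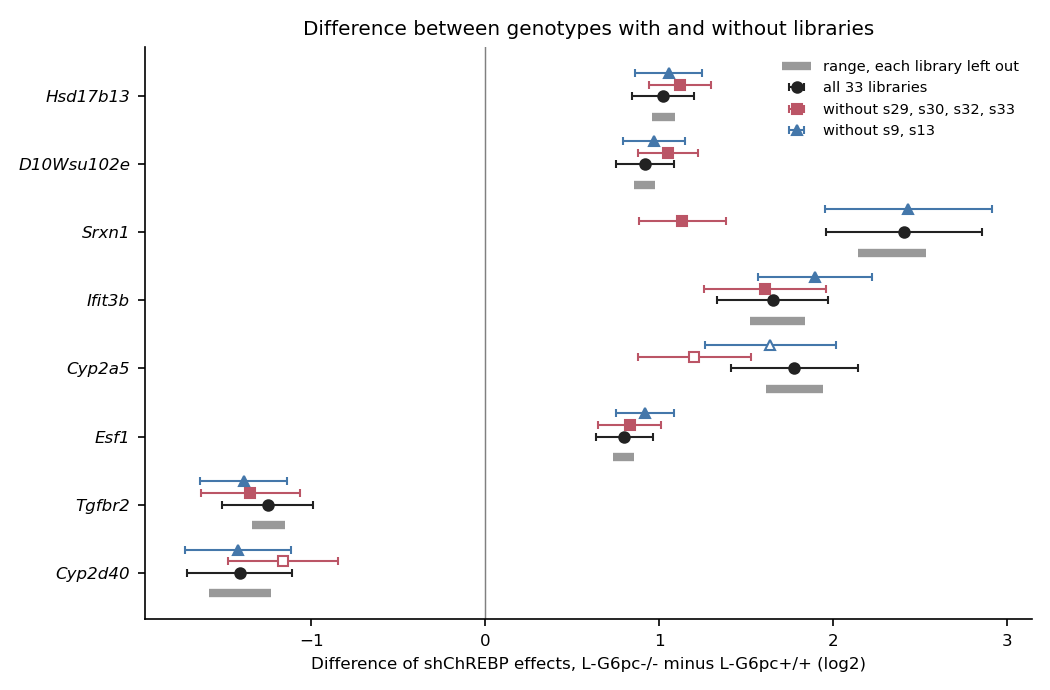
Log2 difference between the effects of shChREBP in L-G6pc-/- and L-G6pc+/+ livers (horizontal axis) for the 8 called genes, over all 33 libraries, without libraries 29, 30, 32 and 33, and without libraries 9 and 13; bars are 1 SE, filled points have an adjusted p under 0.05 and grey lines span the values with each library left out in turn. Hsd17b13 lies at 1.02 to 1.12 in these 3 fits and at 0.96 to 1.09 with single libraries left out, whereas Srxn1 moves from 2.41 to 1.13 without the 4 libraries.

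Srxn1 is induced by NRF2 and Ifit3b by interferon, and their promoters are shown for that reason. The capitals in Srxn1 mark AP-1 matches and not the antioxidant response element core, which is described below. The 250 bases before the RefSeq start site (GRCm38.p6) are printed for Srxn1, with matches to the AP-1 site TGANTCA in capitals, and for Ifit3b, with matches to the interferon-stimulated response element (ISRE), GAAA followed after 2 free bases by GAAA, in capitals, both strands searched.
Srxn1, chr2:152105274-152105523, + strand: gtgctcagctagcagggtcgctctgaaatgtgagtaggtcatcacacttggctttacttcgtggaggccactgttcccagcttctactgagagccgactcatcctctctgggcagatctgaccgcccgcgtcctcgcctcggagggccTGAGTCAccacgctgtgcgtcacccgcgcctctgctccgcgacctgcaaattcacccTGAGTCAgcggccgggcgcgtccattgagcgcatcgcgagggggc
Ifit3b, chr19:34607707-34607956, + strand: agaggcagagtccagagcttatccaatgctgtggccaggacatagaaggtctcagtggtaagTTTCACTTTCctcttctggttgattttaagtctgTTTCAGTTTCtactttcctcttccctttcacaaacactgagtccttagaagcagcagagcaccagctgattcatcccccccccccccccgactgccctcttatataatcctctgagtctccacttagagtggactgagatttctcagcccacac
The 2 AP-1 matches of Srxn1 start at -102 and -45 from the start site, and the 2 ISRE matches of Ifit3b at -188 and -154, on the reverse strand. Srxn1 also holds the antioxidant response element core TGACNNNGC on the reverse strand, starting at base 28 after the start site and so not printed. That core was also in the windows of Hsd17b13, D10Wsu102e and Tgfbr2, and an AP-1 match was at -88 of Ifit3b. In windows of 300 bases (250 before to 50 after the start), the AP-1 site was in 7.81% of the 32851 RefSeq promoters, the antioxidant core in 12.4% and the ISRE in 3.44%, and in 5.34%, 14.6% and 3.1% of those of genes tested. The ISRE was in 19 of 45 promoters of the interferon list (42.2%), which held the antioxidant core in 17.8% and the AP-1 site in 22.2%. Of 44 promoters of the NRF2 list, the antioxidant core was in 10 (22.7%), the AP-1 site in 3 (6.82%) and the ISRE in 2.27%. The E-box CACGTG, part of the element that ChREBP binds, was in 7.15% of all promoters and among the 8 called genes in that of D10Wsu102e. A match describes these letters and is not a binding site.

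Beyond single genes, 38 lists of liver pathways and cell type markers were described by how many members were called and by their median difference, beside -0.01 over all genes. Of their 972 tested genes, 4 were called for the difference, which are Srxn1, Ifit3b, Cyp2a5 and Cyp2d40. Over all genes 0.0786% were called and 12% reached an unadjusted p under 0.05, shares to be set beside the counts below. The medians keep their direction under upper-quartile scaling and, but for the urea cycle list, whose median is near 0, under DESeq2 size factors. With library size alone the whole distribution moved up by 0.102, and relative to it no list turned. The lists were chosen with earlier results of these data known, so their directions are not independent evidence.

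**Figure D4:**
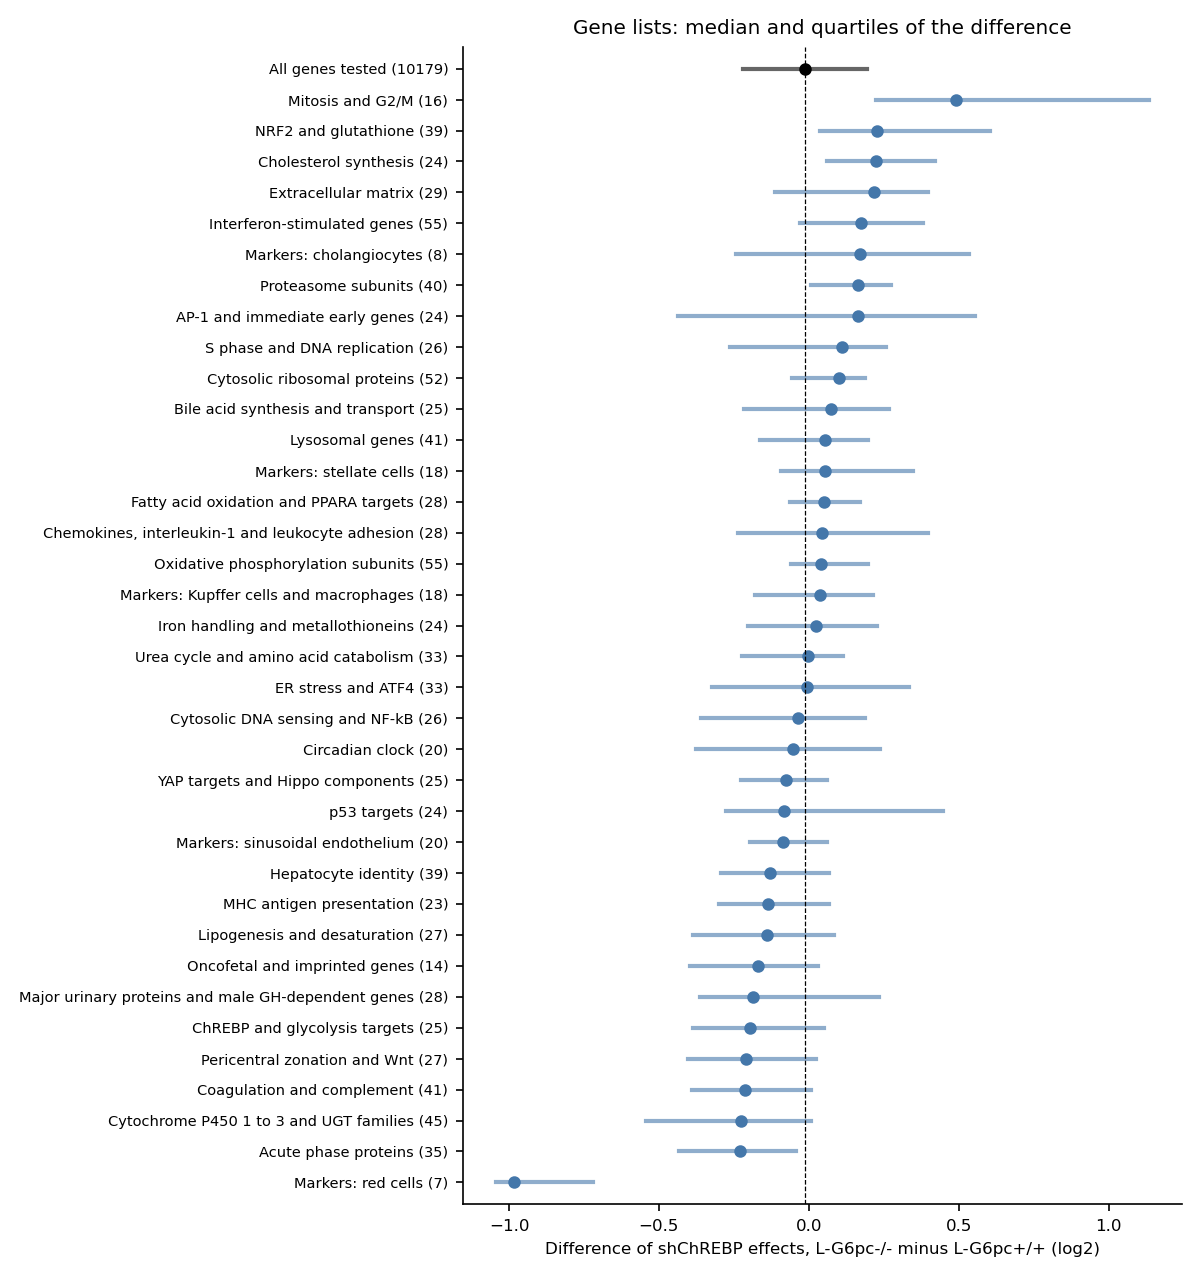
Median log2 difference between the effects of shChREBP in L-G6pc-/- and L-G6pc+/+ livers (horizontal axis) for each list with at least 5 members tested (vertical axis); dots are medians, lines span the quartiles and the dashed line is the median over all genes, -0.01. Mitosis and G2/M lies at 0.49 and the red cell markers at -0.98, while most medians lie closer to 0.

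The NRF2 and glutathione list holds genes that detoxify oxidants and electrophiles. Of its 39 tested members, 1 was called, Srxn1, 31 differences were positive and the median was 0.23. In L-G6pc-/- livers shChREBP raised 15 members and lowered 1, against 3.33% and 4.23% of all genes. In L-G6pc+/+ livers it raised 0 and lowered 2 by edgeR, against 2.16% and 3.23%. At these shares the counts in L-G6pc+/+ livers are not a result about the list. Gstm3, a glutathione S-transferase, had the largest estimate: it read 15.3, 21.3 and 33.9 CPM in shSCR/L-G6pc+/+, 16.8, 27.7 and 58.9 CPM in shChREBP/L-G6pc+/+, 12.7, 25.9 and 70.4 CPM in shSCR/L-G6pc-/- and 41.9, 186 and 581 CPM in shChREBP/L-G6pc-/-. Its difference of 2.59 (SE 0.61, 95% interval 1.37 to 3.82) missed the threshold (adjusted p 0.0706) and was 1.12 (adjusted p 0.271) without libraries 29, 30, 32 and 33. Related Gstm genes can share its reads. Ugdh, which makes UDP-glucuronate, had a difference of 1.03 (adjusted p 0.117). Without those 4 libraries the median of the list was 0.08.

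The 55 interferon-stimulated genes tested are induced by interferons, and many of them act against viruses. Ifit3b was the 1 called, 39 differences were positive and the median was 0.17. All members that passed the test within a genotype were higher with shChREBP, 5 in L-G6pc+/+ livers and 18 in L-G6pc-/- livers, where 2.16% and 3.33% of all genes were higher. The 5 of L-G6pc+/+ livers all had negative differences, from -0.50 to -0.18, short of the threshold. They were picked by values that also enter the difference. For Cxcl10, a chemokine, the effects were 0.35 and 1.57 and the difference was 1.22 (SE 0.46, adjusted p 0.26). For Ifit1 the difference was 0.61 (SE 0.42, adjusted p 0.59). Its median was 0.04 without libraries 29, 30, 32 and 33.

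Cell division genes had the most positive median of any pathway list, but it rested on the libraries that stood apart. Of 16 mitosis and G2/M genes tested, 0 were called for the difference by edgeR and 1 reached an unadjusted p under 0.05, 13 differences were positive and the median was 0.49. Within genotypes, 9 rose in L-G6pc-/- livers, against 3.33% of all genes, and 0 were called by edgeR in L-G6pc+/+ livers, against 5.39% of all genes, a share at which 0 of 16 is not a result about the list. For Cdc20, which switches on the anaphase-promoting complex, the effects were 1.41 (adjusted p 0.294) and 2.93 and the difference was 1.52 (SE 1.01, 95% interval -0.53 to 3.57, adjusted p 0.601). Cdc20 read 0 to 1.01 CPM in shSCR/L-G6pc+/+ and 0 to 5.12 CPM in shChREBP/L-G6pc+/+. In L-G6pc-/- livers it read 0.451 to 2.78 CPM with shSCR and 0.977 to 30.6 CPM with shChREBP. A gene low in the other groups can pass the filter on low counts through the group where it is high. The counts for this list can therefore lean toward shChREBP/L-G6pc-/- livers and are not evidence of a rise there. For Cdk1, the kinase that drives entry into mitosis, the difference was 1.14 (SE 0.55, adjusted p 0.402). Without libraries 29, 30, 32 and 33 the median of the list turned to -0.04, and without libraries 9 and 13 it was 1.16. The p53 targets had a median of -0.08 (-0.13 without the 4 libraries), with 0 of 24 called by edgeR and 1 at an unadjusted p under 0.05, and for Mdm2, which degrades p53, the difference was 0.51 (SE 0.17, adjusted p 0.208).

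The genes that ChREBP is known for gave no called difference. Of 25 ChREBP and glycolysis targets tested, 0 were called by edgeR and 4 reached an unadjusted p under 0.05, 18 differences were negative and the median was -0.20. They fell in 4 cases in L-G6pc+/+ livers, against 3.23% of all genes, and in 9 in L-G6pc-/- livers, against 4.23%. In the latter 1 rose, near the 3.33% of all genes. For Gpi1, which interconverts glucose-6-phosphate and fructose-6-phosphate, the effects were -0.18 (adjusted p 0.434) and -0.70 and the difference was -0.52 (SE 0.17, adjusted p 0.205). For Gpd1, which makes glycerol-3-phosphate, the difference was -0.38 (SE 0.15, adjusted p 0.293). Among 27 genes of lipogenesis and desaturation, 0 were called by edgeR and 2 reached an unadjusted p under 0.05, and the median was -0.14. Acly, which supplies cytosolic acetyl-CoA, fell in both genotypes, by 0.77 on the log2 scale (adjusted p 0.0308) and by 1.33, with a difference of -0.55 (95% interval -1.16 to 0.05, adjusted p 0.468). For Dgat2, of the last step of triglyceride synthesis, the difference was -0.56 (SE 0.15, adjusted p 0.123).

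For cholesterol synthesis the median difference had the opposite sign. Of 24 genes tested, 20 had positive differences and the median was 0.22, with 0 called by edgeR and 5 at an unadjusted p under 0.05. In L-G6pc+/+ livers 6 members fell, against 3.23% of all genes, and in L-G6pc-/- livers 3 fell, against 4.23%. Cyp51, lanosterol demethylase, fell in L-G6pc+/+ livers (-0.79, adjusted p 0.0035) and was at 0.06 in L-G6pc-/- livers, with a difference of 0.85 (SE 0.22, adjusted p 0.117). Hmgcs1, which makes HMG-CoA, had effects of -0.65 (adjusted p 0.027) and 0.15 and a difference of 0.81 (SE 0.25, adjusted p 0.178). The median was 0.23 without libraries 29, 30, 32 and 33. The proteasome subunits, which degrade tagged proteins, had positive differences in 30 of 40 and a median of 0.16 (0.07 without those 4 libraries), with 0 called by edgeR and 7 at an unadjusted p under 0.05. Pomp, a chaperone of proteasome assembly, fell in L-G6pc+/+ livers (-0.80, adjusted p 0.0015) and was at -0.07 in L-G6pc-/- livers, a difference of 0.74 (SE 0.20, adjusted p 0.13), and it was called without those 4 libraries (0.96, adjusted p 0.0266).

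Several lists of secreted and metabolic hepatocyte genes had negative medians. In the cytochrome P450 and UGT families, which metabolise drugs and steroids, 2 of 45 were called, Cyp2a5 with a positive difference and Cyp2d40 with a negative one, 33 differences were negative and the median was -0.23. For Cyp2c50 the difference was -1.05 (SE 0.30, adjusted p 0.14). Acute phase proteins had 27 negative differences of 35 and a median of -0.23, with 0 called by edgeR and 9 at an unadjusted p under 0.05. Among its members 10 fell and 3 rose in L-G6pc-/- livers, against 4.23% and 3.33% of all genes. In L-G6pc+/+ livers 1 fell and 2 rose, against 3.23% and 2.16%, shares at which counts this small are not a result about the list. For Saa1, whose reads may be shared with Saa2, the difference was -1.89 (SE 0.57, adjusted p 0.169). Coagulation and complement genes had 30 negative differences of 41 and a median of -0.21, with 0 called by edgeR and 12 at an unadjusted p under 0.05, a share that was 12% over all genes. In L-G6pc-/- livers 10 members fell, against 4.23% of all genes, and in L-G6pc+/+ livers 1 fell, near the 3.23% of all genes. For F7, coagulation factor VII, the difference was -0.65 (SE 0.16, adjusted p 0.113). The medians of these lists, in the order given, were -0.18, -0.11 and -0.13 without libraries 29, 30, 32 and 33, and that of the acute phase proteins was -0.14 without libraries 9 and 13.

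Pericentral genes, expressed around the central vein under Wnt control, had 20 negative differences of 27 and a median of -0.21, and -0.20 without the 4 libraries. Slc1a2, a glutamate transporter of that zone, had effects of 0.39 (adjusted p 0.0367) and -0.22 and a difference of -0.61 (SE 0.16, adjusted p 0.117). The median was 0.22 for the extracellular matrix, as high as for cholesterol synthesis, 0.16 for AP-1 and immediate early genes, 0.07 for bile acid synthesis and transport, 0.05 for fatty acid oxidation, and 0.04 for chemokines and leukocyte adhesion. Without the 4 libraries these were 0.06, 0.13, 0.02, 0.07 and -0.09, and without libraries 9 and 13 they were 0.14, 0.18, 0.18, 0.0050 and 0.011. In the order given, 29, 24, 25, 28 and 28 members were tested, and 0 were called for the difference by edgeR. An unadjusted p under 0.05 was reached by 1, 5, 4, 3 and 7 of them, against 12% of all genes. A further 13 lists, from the urea cycle to lysosomal genes, had medians from -0.19 to 0.11 and 0 called genes by edgeR, and some of these medians turned without the 4 libraries, S phase genes from 0.11 to -0.18.

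Markers of the cell types of liver were set beside these results. The 39 hepatocyte identity genes tested, Alb and Hnf4a among them, had a median difference of -0.13 (-0.045 without libraries 29, 30, 32 and 33 and -0.20 without libraries 9 and 13), with 0 called by edgeR and 5 at an unadjusted p under 0.05. Their summed level was 66001 to 75641 CPM in shSCR/L-G6pc+/+, 54538 to 75064 CPM in shChREBP/L-G6pc+/+, 53642 to 68669 CPM in shSCR/L-G6pc-/- and 38584 to 62615 CPM in shChREBP/L-G6pc-/-, with the 4 libraries that stood apart at 38584 to 52685 CPM. For 18 Kupffer cell and macrophage markers the median difference was 0.04 (-0.091 without the 4 libraries and 0.13 without libraries 9 and 13) and the sums were 1479 to 2419, 1517 to 3657, 1347 to 2962 and 2079 to 3159 CPM in the same order, with the 4 libraries at 2693 to 3159 CPM. The 7 red cell markers tested all had negative differences, with a median of -0.98 (-1.52 without the 4 libraries and -0.58 without libraries 9 and 13) and 0 called by edgeR or at an unadjusted p under 0.05, and their sums ran from 287 to 7092 CPM over all libraries. Medians were 0.05 for 18 stellate markers, -0.09 for 20 sinusoidal endothelial markers, 0.17 for 8 of 16 cholangiocyte markers, -0.43 for 3 of 12 neutrophil markers and 0.54 for 3 of 19 lymphocyte markers. Without the 4 libraries these 5 medians were 0.19, -0.049, -0.044, -0.60 and 0.24, and without libraries 9 and 13 they were 0.12, -0.042, 0.054, -0.29 and 0.54. The part of these sums in the differences was not tested.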

How the data were processed

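Liver RNA of 33 libraries was sequenced by the authors from the 3' end of transcripts. Alignment to GRCm38 used HISAT, sorting used SAMtools, and HTSeq gave a count for every Ensembl gene (versions and strand setting not given in the sources used here). The deposited counts are whole numbers, 1497843 to 3546852 per library. The deposited normalized table holds a signal per gene, linear and not log2 as had been planned for, so its log2 was taken before limma was run on it as an alternative.

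Genes with at least 10 counts in enough libraries and 15 in total (filterByExpr) were kept, 10179 of 25988. One fit of the 4 group means with TMM scaling was made in edgeR 4.0.16 (R 4.3.3), and the contrast of the 2 shChREBP effects was tested two-sided by quasi-likelihood with Benjamini-Hochberg adjustment at 0.05. Principal components used log2 CPM with a prior count of 2. Symbols came from GENCODE M21 for 25817 genes. Alternatives used DESeq2 1.42.0, limma 3.58.1, other scalings and filters, and fits without single or several libraries. The procedure was tested on simulated data.

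The groups, the 38 lists and the libraries left out were chosen with earlier results of these data known. The text names the targets of the design and the genes an earlier report led with, then every called gene with a mean of at least 5 CPM, and for each list the members with the smallest p. Ifit3, Ifit1, Ddx10, Nol10, Polr3d and the genes in the closing part were named after their values were seen. The labels give no batch. The values of 1 list member are not reported here.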

Additional observations from a re-analysis of the deposited data

Results flagged for a closer look

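The effect of shChREBP differed between the genotypes, by the edgeR test of the difference itself, for 8 genes. The log2 differences, L-G6pc-/- minus L-G6pc+/+, were 1.02 for Hsd17b13, 0.92 for D10Wsu102e, 2.41 for Srxn1, 1.65 for Ifit3b, 1.78 for Cyp2a5, 0.80 for Esf1, -1.25 for Tgfbr2 and -1.41 for Cyp2d40.

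Single libraries lay far from the rest of their group for 6 of 14 genes examined, in 7 of 56 groups. About 1 in 20 groups would be flagged if values were independent and normally spread. The groups reuse the same libraries over chosen genes, so an excess over that rate was not tested. In shChREBP/L-G6pc+/+ these were Cdkn1a at 116 CPM in library 13, G6pc at 69.1 CPM, the lowest of its group, in library 16, and Gstm3 at 58.9 CPM in library 14. In shSCR/L-G6pc-/- they were Gstm3 at 70.4 CPM in library 20, Ifit3b at 33.7 CPM in library 18 and Pklr at 461 CPM in library 17. In shChREBP/L-G6pc-/- it was Cyp2d40 at 88.4 CPM in library 31, the same library that was lowest of its group for Ifit3b at 17.1 CPM. What set these libraries apart was not tested.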

How the results depend on the processing

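The number of genes called for the difference was 8, and it was 33 with library size alone, 5 with the robust edgeR fit, 73 with DESeq2, 4 with limma-voom, 0 with limma on the deposited normalized table (1265 genes at an unadjusted p under 0.05), 37 without libraries 29, 30, 32 and 33 and 19 without libraries 9 and 13. The cause of these shifts was not tested. Leaving out each library in turn gave 4 to 16 genes for the difference, 316 to 626 for shChREBP in L-G6pc+/+ livers and 531 to 887 in L-G6pc-/- livers. The last count was 106 without the 4 libraries. All 8 genes lost their call in the deposited table (adjusted p 0.0585 to 0.127). Elsewhere, Srxn1 lost it in the robust fit (0.0568), limma-voom (0.0710) and limma-voom with a variance for each group (0.0550), Cyp2a5 in the robust fit (0.0613), limma-voom (0.0506) and both fits without several libraries, Cyp2d40 with DESeq2 size factors (0.0510), the stricter filter (0.0515), the robust fit (0.0613), limma-voom (0.0506) and without the 4 libraries, and Tgfbr2 in limma-voom (0.0559). Mlxipl, near 0 with all libraries, changed sign to 0.066 with library size alone, 0.0070 with no filter and 0.017 without libraries 9 and 13. Without the 4 libraries it also changed sign, to 0.28. Over single libraries left out Mlxipl ran from -0.080 to 0.059, and G6pc from -0.13 to 0.32. Over the other settings 697 values of named genes kept direction and side of the threshold, 21 lost and 13 gained a call and 4 changed sign. DESeq2 called 48 genes with a positive and 25 with a negative difference, Gstm3 among them (adjusted p 0.0103). No paired analysis was possible because replicate numbers run through the series and no number is shared between groups.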

Other observations

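The following genes lay just short of the threshold and were chosen after their values were seen. For Ddx10 and Nol10, which act in ribosome production, the differences were 0.87 (SE 0.19, adjusted p 0.0556) and 1.10 (SE 0.25, adjusted p 0.0556). Ddx10 fell in L-G6pc+/+ livers (-0.65, adjusted p 0.00426) and was at 0.22 in L-G6pc-/- livers (adjusted p 0.343). For Polr3d, a subunit of RNA polymerase III, the difference was 1.20 (SE 0.28, adjusted p 0.0614), with a rise of 0.86 in L-G6pc-/- livers (adjusted p 0.0046). Sec61a1, of the channel that carries proteins into the endoplasmic reticulum, had 0.62 (SE 0.14, adjusted p 0.0556) and fell in L-G6pc+/+ livers by 0.56 on the log2 scale (adjusted p 0.00122). On the other side lay Slc25a45 at -0.87 and the elongation factor gene Eef1a1 at -0.86, both with an adjusted p of 0.0556. Copies of Eef1a1 can share its reads.

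Without libraries 29, 30, 32 and 33, 29 of the 37 genes called for the difference were also called in L-G6pc+/+ livers, 23 of them lower and 6 higher with shChREBP, and 6 were called in L-G6pc-/- livers. With all libraries, 5.39% of all genes were called in L-G6pc+/+ livers and 7.56% in L-G6pc-/- livers. The reduced fit kept 5 of 9 shChREBP/L-G6pc-/- libraries and called fewer genes in that genotype. A lean of the 37 toward L-G6pc+/+ calls cannot be told apart from that loss. Among the 37 were Acox3, a peroxisomal oxidase (0.96, adjusted p 0.0266), Hspg2, the basement membrane proteoglycan perlecan (-1.19, adjusted p 0.0266), Lrpprc, a regulator of mitochondrial RNA (0.73, adjusted p 0.0363), Apof, an apolipoprotein (0.69, adjusted p 0.0363), and Akt2, a kinase of insulin signalling (0.66, adjusted p 0.0363). With all libraries none of these 5 passed the threshold in the edgeR fit.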
